A study of Danio rerio with 32 samples.

Results

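The respiratory chain genes described here are 119 of the 32520 zebrafish genes in the deposited tables. They were chosen by symbol alone, without any expression value. A gene was a member if its Ensembl symbol, case ignored, began with nduf, uqcr, cox4, cox5, cox6, cox7, cox8, atp5, mt-nd, mt-co, mt-atp or mt-cyb, or was sdha, sdhb, sdhc, sdhd or cyc1. The nuclear genome held 106 of them and the mitochondrial genome 13. By role, complex I had 39 nuclear and 7 mitochondrial members, with 8 nuclear assembly factors of the ndufaf group beside them. Complex II had 5 nuclear members. Complex III had 9 nuclear members and 1 mitochondrial member. Complex IV had 21 nuclear and 3 mitochondrial members, with 4 more of the NDUFA4 family, which was counted apart. Complex V had 20 nuclear and 2 mitochondrial members.

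The respiratory chain sits in the inner mitochondrial membrane, where complexes I and II pass electrons from NADH and succinate to ubiquinone, complex III passes them on to cytochrome c, and complex IV hands them to oxygen. Complexes I, III and IV pump protons, and complex V, the ATP synthase, uses the gradient to make ATP. The mitochondrial genome encodes core hydrophobic subunits of every complex except complex II, while the nuclear genome encodes the others and the assembly factors, so each of those complexes mixes products of both genomes.

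RNA came from whole zebrafish larvae at 20 days post fertilization (dpf), in 32 libraries of 2 experiments. The larvae carried a mutant allele of pllp, the gene of the membrane protein plasmolipin, or were of the EK strain, for which the labels name no allele. The diets were labelled Low Protein (LP) and High Protein (HP), and the labels give no composition. Experiment 1 held pllp pd1116 on LP and on HP, pllp pd1245 on LP and on HP, and EK on LP and on HP, with 3 libraries in each of the 6 groups. The design text calls pd1116 the old mutation, in which the survival defect under nutritional restriction had adapted, and pd1245 the new one, which had that defect. Experiment 2 held a line labelled pllp pd1245 that the design text calls adapted, and EK, with 4 libraries per genotype on LP and 3 on HP. How many larvae, clutches or tanks stand behind a library is not stated, so p-values measure only the spread between these samples, which may be technical. The 2 experiments used different library methods and were analysed apart.

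Gene counts per library ran from 19838912 to 29147958 in experiment 1, and from 9788601 to 12929536 in experiment 2 except for EK HP replicate 2, which had 3713048. The pllp transcript lay lower in every mutant library than in every EK library of its experiment (3.39 to 10.16 against 11.3 to 17.1 CPM, counts scaled to library size, in experiment 1, and 5.41 to 7.72 against 24.6 to 38.3 CPM in experiment 2). Replicate 3 of pd1245 LP stood apart in experiment 1: its scaling factor was 0.832, against 0.971 to 1.056 in the other libraries, and its summed cytosolic ribosomal protein transcripts came to 159442 CPM, against 79960 and 79027 CPM in the other libraries of its group. It was also the highest of its group for 110 of the 117 members tested (94%), against 45% of all genes tested. Counts of calls in comparisons of pd1245 LP are therefore given with and without it. So are the printed fold changes of called members that moved by over 1.5 times, or lost their call, in its absence. Counts of members whose libraries did not overlap are given with it only. In experiment 2, EK HP replicate 2 had a scaling factor of 1.168, and mt-atp8 stood at 39.5 CPM there, against 233 and 260.1 CPM in the other EK HP libraries.

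Members with enough counts to be tested numbered 117 in each experiment. In experiment 1 the complex I genes NDUFB4 and NDUFS1 were left out, with 11 and 6 counts over all libraries. In experiment 2 a complex IV gene, COX5B (ENSDARG00000113254), and ndufa4l2b were left out, with 13 and 7 counts. Differences were tested with edgeR's quasi-likelihood test, adjusted by the Benjamini-Hochberg method over all genes tested in the experiment, and a gene was called at an adjusted p under 0.05. Of the 119 members, 40 were called in at least 1 of 16 comparisons and 79 in none, and a member said below to be called nowhere was called in none of these with all libraries in the fit. Counts of calls from other fits, and counts at an unadjusted p, are set against all genes only where a share stands beside them. A count without such a share is not a result about the members as a group. RNA of whole larvae cannot tell fewer cells of a type apart from less RNA per cell, and this holds for every difference below.

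The question put to experiment 1 is how the transcriptomes of the old and new mutants differed from EK under each diet. Among the respiratory chain genes, pd1245 LP larvae showed the most calls. In pd1245 LP against EK LP, 20 of 117 members were lower and 3 higher, while 15.8% of all 22742 genes tested were lower and 16% higher. The median log2 fold change of the members was -0.08, against 0.01 over all genes tested. The share lower was thus close to the background and the share higher below it. All pd1245 LP libraries were below all EK LP libraries in 16 members (13.7%, against 22% of all genes) and above them in 10 (8.55%, against 21.2%). Both counts include replicate 3 of pd1245 LP, the highest of its group for 110 of 117 members, which limits how many members can lie below EK LP. Without replicate 3 of pd1245 LP, 62 members were lower and 3 higher, when 14.5% and 12.9% of all genes were, and the members' median was -0.27. All 23 genes called with all libraries were still called then. By class, the 62 comprised all 7 mitochondrial genes of complex I, MT-CYB, both mitochondrial genes of complex V, 20 of 37 nuclear genes of complex I, 1 of 5 of complex II, 4 of 9 of complex III, 13 of 21 of complex IV, 2 of 4 of the NDUFA4 family and 12 of 20 of complex V. With only the 2 groups in the fit, the calls numbered 6 with replicate 3 and 73 without it. Leaving out EK LP replicate 2 or replicate 3 gave 14 or 12 calls. For the fits of only the 2 groups, and those without an EK LP library, no share of all genes is given.

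In the other comparisons of a mutant with EK, few members were called. In pd1116 LP against EK LP, 3 members were lower and none higher, when 3.86% and 2.82% of all genes were. In pd1116 HP against EK HP, 1 member was higher and none lower, when 1.27% and 1.63% of all genes were. In pd1245 HP against EK HP, 2 members were higher and 2 lower, when 1.63% and 2.54% of all genes were. Of these 4 calls, 1 was left without EK HP replicate 1 or 2 or pd1245 HP replicate 1 or 2, and 2 without EK HP replicate 3. Without replicate 3 of pd1245 LP in the shared fit, there were 8 calls in pd1245 HP against EK HP and 3 in pd1116 HP against EK HP, and without EK HP replicate 1 there were 2 in the last. Counts from fits that left out a library have no share of all genes beside them here. Comparisons on the same diet share the EK libraries of that diet.

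Beside the 3 calls, most members had lower estimates in pd1116 LP than in EK LP. Of the 117 members, 99 had a fold change below 0, with a median of -0.14 against 0.00 for all genes. In 48 of them (41%) every pd1116 LP library was below every EK LP library, when 17.2% of all genes were so placed. All pd1116 LP libraries were above all EK LP libraries in 6, when 16.6% of all genes were. On HP the balance was the opposite: 77 of 117 members had a fold change above 0 in pd1116 against EK, with a median of 0.05, and 25 members had all pd1116 libraries above all EK libraries (21.4%, against 10.5% of all genes). In 7 members all pd1116 HP libraries were below all EK HP libraries, when 12.1% of all genes were. The number of calls in pd1116 LP against EK LP depended on which libraries were in the fit: it was 19 with only those 2 groups, 22 without replicate 3 of pd1245 LP, and 1 without replicate 3 of pd1116 LP. How many of all genes were called in these fits is not given here, so these counts stand without a background.

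**Figure D1:**
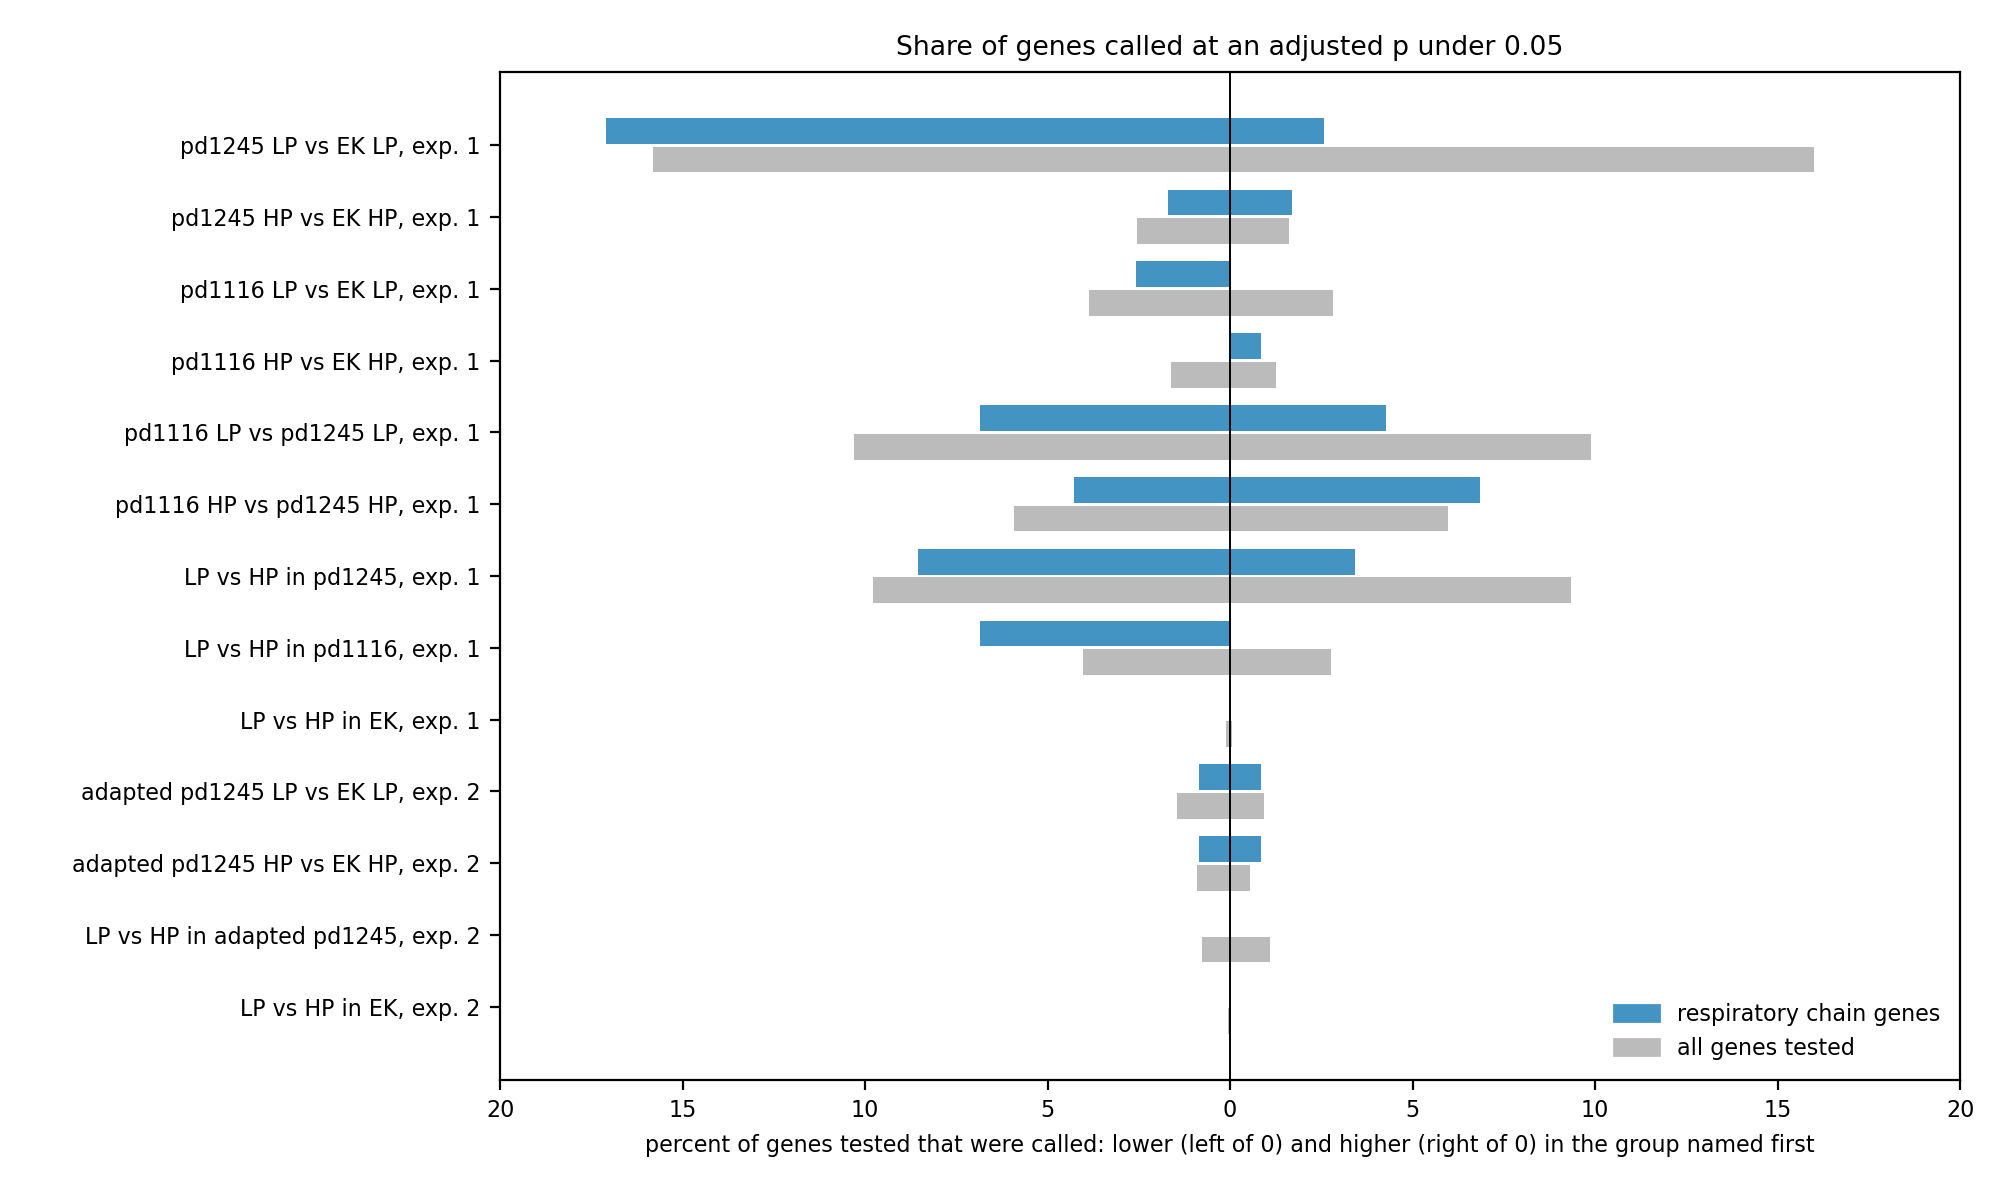
Percent of respiratory chain genes (117 tested) and of all genes tested that were called lower or higher by edgeR at an adjusted p under 0.05, in each of 13 comparisons. In pd1245 LP against EK LP the members' share lower is close to that of all genes, and in LP against HP in EK of experiment 1 no member is called.

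The diet comparison asks what LP did relative to HP within each genotype. With all libraries counted, pd1116 was the genotype of experiment 1 with the most members whose diets did not overlap. In pd1116, 8 members were called lower on LP and none higher, when 4.04% and 2.76% of all genes were. Fold changes of 99 of 117 members lay below 0, with a median of -0.17 against 0.01 over all genes. All LP libraries were below all HP libraries in 69 members (59%, against 17.6% of all genes), and above them in 10 (8.55%, against 17.4%). Mitochondrial genes shared this direction in 12 of 13 cases (median -0.29), nuclear complex I genes in 34 of 37 (median -0.17), nuclear complex IV genes in 18 of 21 (median -0.23), nuclear complex V genes in 16 of 20 (median -0.11) and assembly factors in 5 of 8 (median -0.02). The count of calls depended on the libraries in the fit, being 40 with only the 2 groups, 33 without replicate 3 of pd1245 LP, and 5 without pd1116 HP replicate 1 or pd1116 LP replicate 3. The shares of all genes called in these fits are not given here.

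In pd1245, LP against HP gave 10 members lower and 4 higher, when 9.78% and 9.33% of all genes were. The median of the members was -0.02. With replicate 3 of pd1245 LP included, all LP libraries were below all HP libraries in 13 members (11.1%, against 16% of all genes). They were above them in 5 (4.27%, against 15.1%). Without replicate 3 of pd1245 LP, 28 members were lower and none higher, with a median of -0.19, and 10 of the 14 genes called with all libraries were called again. The shares of all genes called in that fit are not given here, so these counts stand without a background. Without pd1245 HP replicate 3, 1 member was called. That library was the highest of the pd1245 HP group for 92 of 117 members. With only the 2 groups in the fit no member was called.

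EK larvae of experiment 1 showed no call among the members between LP and HP by edgeR, when 0.106% of all genes were lower and 0.0484% higher. At an unadjusted p under 0.05, 1 member was lower and none higher, and DESeq2 called none; without replicate 3 of pd1245 LP edgeR called 1. All LP libraries were below all HP libraries in 9 members (7.69%, against 8.85% of all genes) and above them in 7 (5.98%, against 8.45%). The 2 genomes lay to different sides of 0 in these larvae: 82 of 104 nuclear members had a fold change above 0 (median 0.06), while 12 of 13 mitochondrial members were below 0 (median -0.09). These shifts are small, and none of the fold changes was called with all libraries. Replicate 1 of EK LP was the lowest of its group for all 13 mitochondrial members and for 85 of 104 nuclear ones. The difference between the mutant and the EK diet response was tested as an interaction, and it called no member in pd1116 (0% of all genes higher and 0.0044% lower) or pd1245 (2.3% higher and 3.4% lower). At an unadjusted p under 0.05, 19 members were lower and none higher in the interaction of pd1116, and 12 lower and 1 higher in that of pd1245. No share of all genes is given at that threshold or for the other fits that follow. Those counts stand without a background. DESeq2 called 1 and 6 members in these interactions. With replicate 3 of pd1245 LP left out, edgeR called 6 and 12, all lower. Without pd1245 LP replicate 1 or pd1245 HP replicate 2 it called 3 or 1 in the interaction of pd1245. Among the 6 were MT-ND3, COX6A1 (ENSDARG00000054588), COX7C and cox4i1l.

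Setting the mutants side by side, pd1116 LP against pd1245 LP gave 5 members higher and 8 lower, when 9.89% and 10.3% of all genes were. Without replicate 3 of pd1245 LP the counts were 12 higher and 4 lower, and 7 of the 13 genes remained. The shares of all genes called in that fit are printed below, with the list of genes around the chain. Leaving out pd1245 LP replicate 2 gave 22 calls, leaving out any library of pd1116 LP gave 4 or 5, and with only the 2 groups in the fit there was 1 call. In pd1116 HP against pd1245 HP, 8 members were higher and 5 lower, when 5.96% and 5.91% of all genes were. That total of 13 was 5 to 7 without pd1116 HP replicate 1 or 3 or pd1245 HP replicate 1 or 2, 21 with only the 2 groups in the fit, and 26 without replicate 3 of pd1245 LP. Except for the LP comparison without replicate 3 of pd1245 LP, no share of all genes is given for these other fits.

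**Figure D2:**
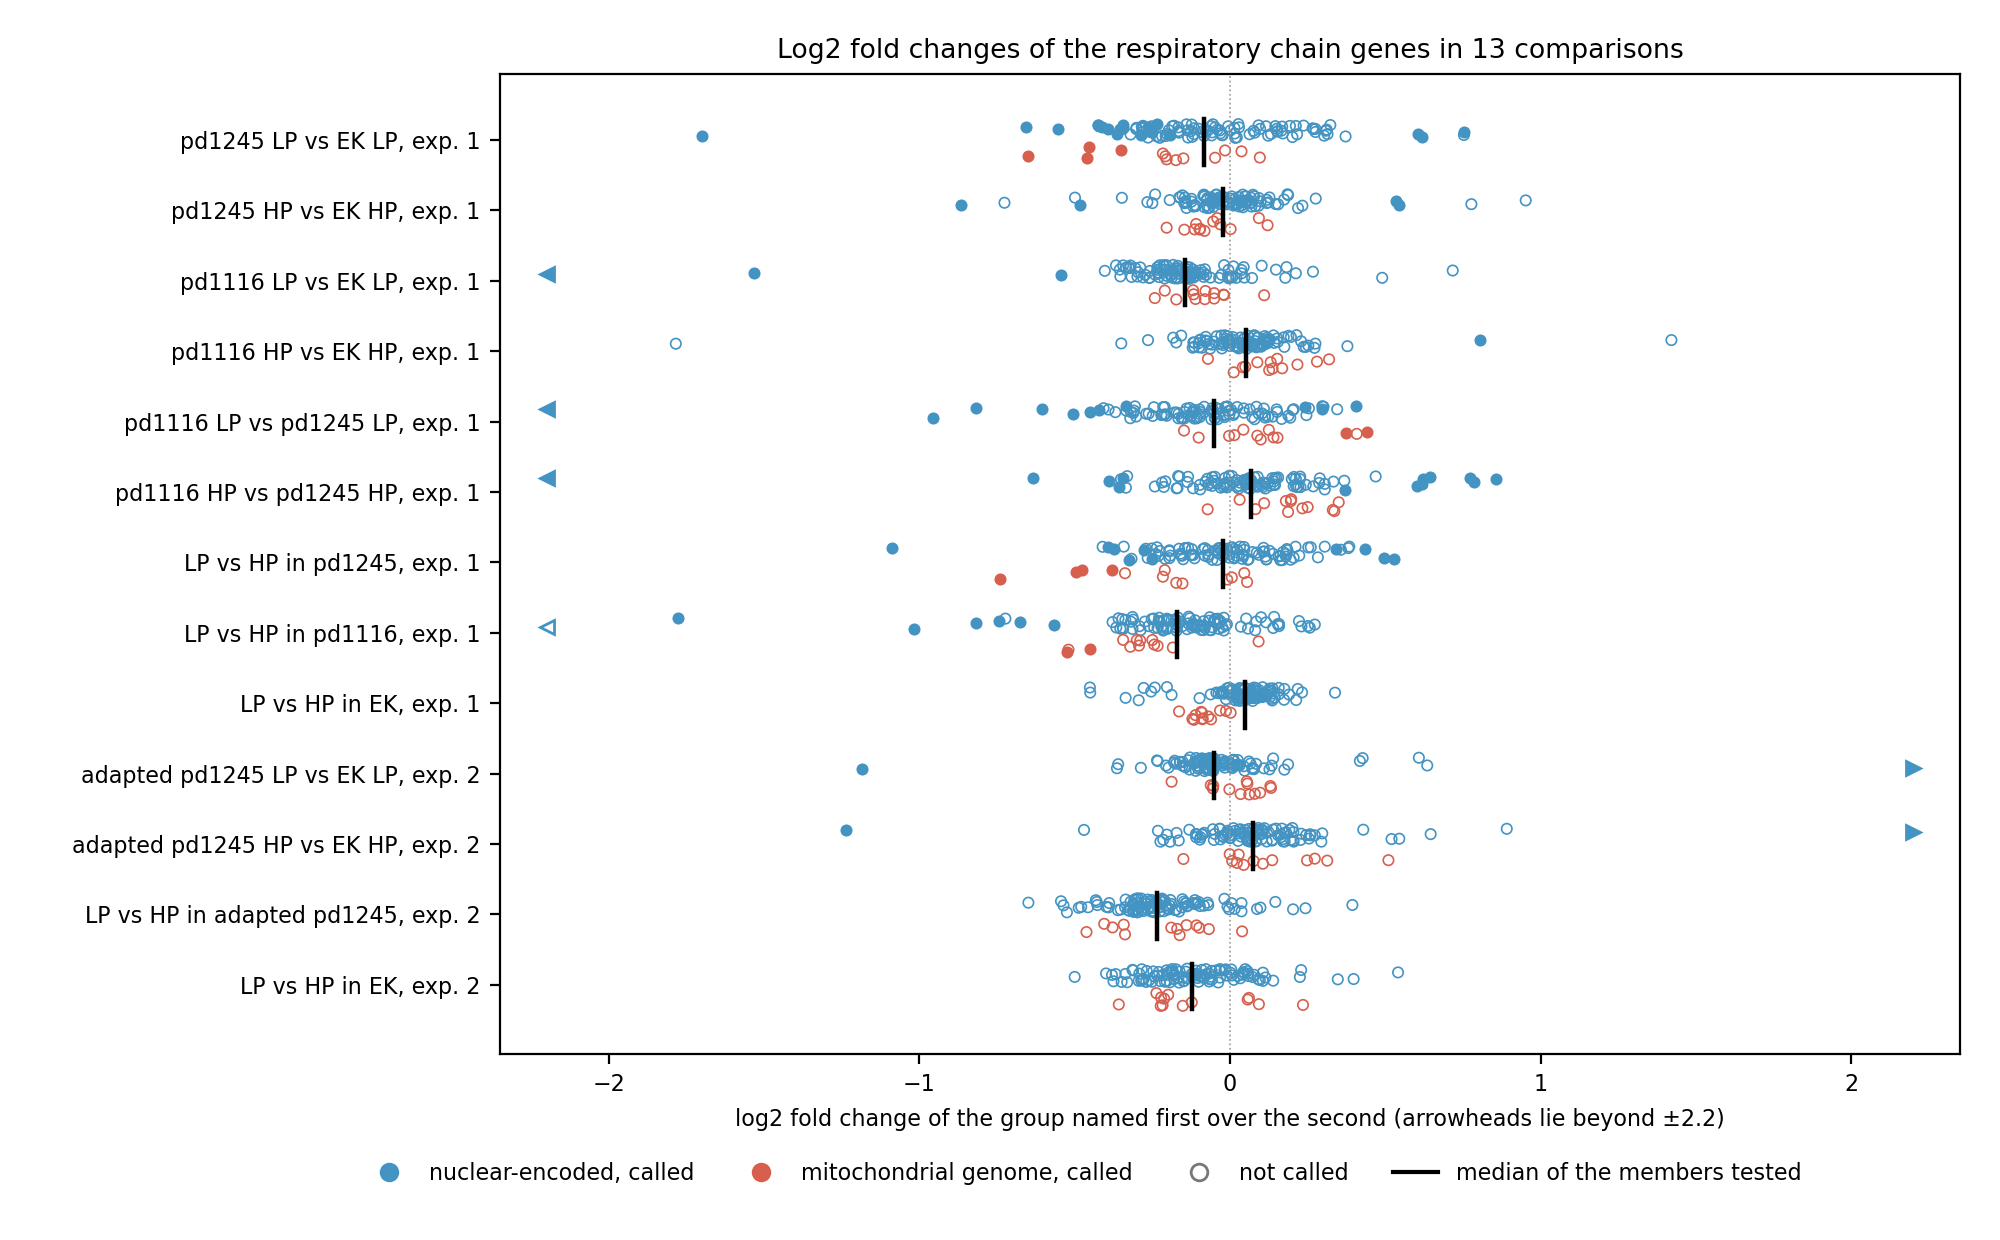
Log2 fold changes of the 117 members tested in each of 13 comparisons. Each point is a gene, filled points were called by edgeR, the black line is the median, and arrowheads mark values beyond the axis. In LP against HP in pd1116, 99 of 117 points lie below 0, and in EK of experiment 1, 83 lie above 0.

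Summed transcript levels were read by complex and by genome. The 13 mitochondrial genes came to 33096, 33712 and 33187 CPM in pd1116 LP, against 38305, 37971 and 37158 CPM in pd1116 HP. They came to 31051, 29973 and 36717 CPM in pd1245 LP, against 33046, 35341 and 36135 CPM in pd1245 HP. In EK the sums were 32227, 34401 and 35445 CPM on LP, against 36287, 36558 and 35338 CPM on HP. LP and HP did not overlap in pd1116, and they overlapped in pd1245 through replicate 3 of LP, the highest of all pd1245 libraries. In EK they overlapped by the HP library at 35338 CPM, which was below LP replicate 3. As a share of all gene counts, mitochondrial members took 3.32, 3.43 and 3.50% in pd1116 LP and 3.85, 3.68 and 3.72% in pd1116 HP. This share was 3.23, 3.08 and 3.05% in pd1245 LP and 3.46, 3.68 and 3.71% in pd1245 HP. It was 3.26, 3.48 and 3.56% in EK LP and 3.56, 3.55 and 3.43% in EK HP. Taken without scaling factors, every LP library was thus below every HP library in both mutants, and replicate 3 was the lowest of the pd1245 LP libraries.

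Nuclear complex IV genes summed to 1403, 1432 and 1380 CPM in pd1116 LP, against 1589, 1603 and 1571 CPM in pd1116 HP, with no overlap. For nuclear complex I genes the sums were 1936, 1966 and 1896 CPM in pd1116 LP, against 2095, 2085 and 2076 CPM in pd1116 HP, again without overlap. The sum of complex II went the other way, though not every gene of it did. Its 5 genes summed to 572, 546 and 549 CPM in pd1116 LP, against 517, 526 and 499 CPM in pd1116 HP. These sums are descriptions, in which abundant genes weigh most, and carry no test. Single complex II genes were read between diets in pd1116 from the shared fit without the library that stands apart, which is of pd1245 LP. Their log2 fold changes were 0.157 for SDHA and 0.221 for SDHB. They were -0.103 for SDHC, -0.168 for SDHD (ENSDARG00000030139) and -0.725 for SDHD (ENSDARG00000055712). In that fit edgeR called SDHB higher on LP (adjusted p = 0.0239) and SDHD (ENSDARG00000055712) lower (adjusted p = 0.0339). The other genes of complex II were not called in it.

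**Figure D3:**
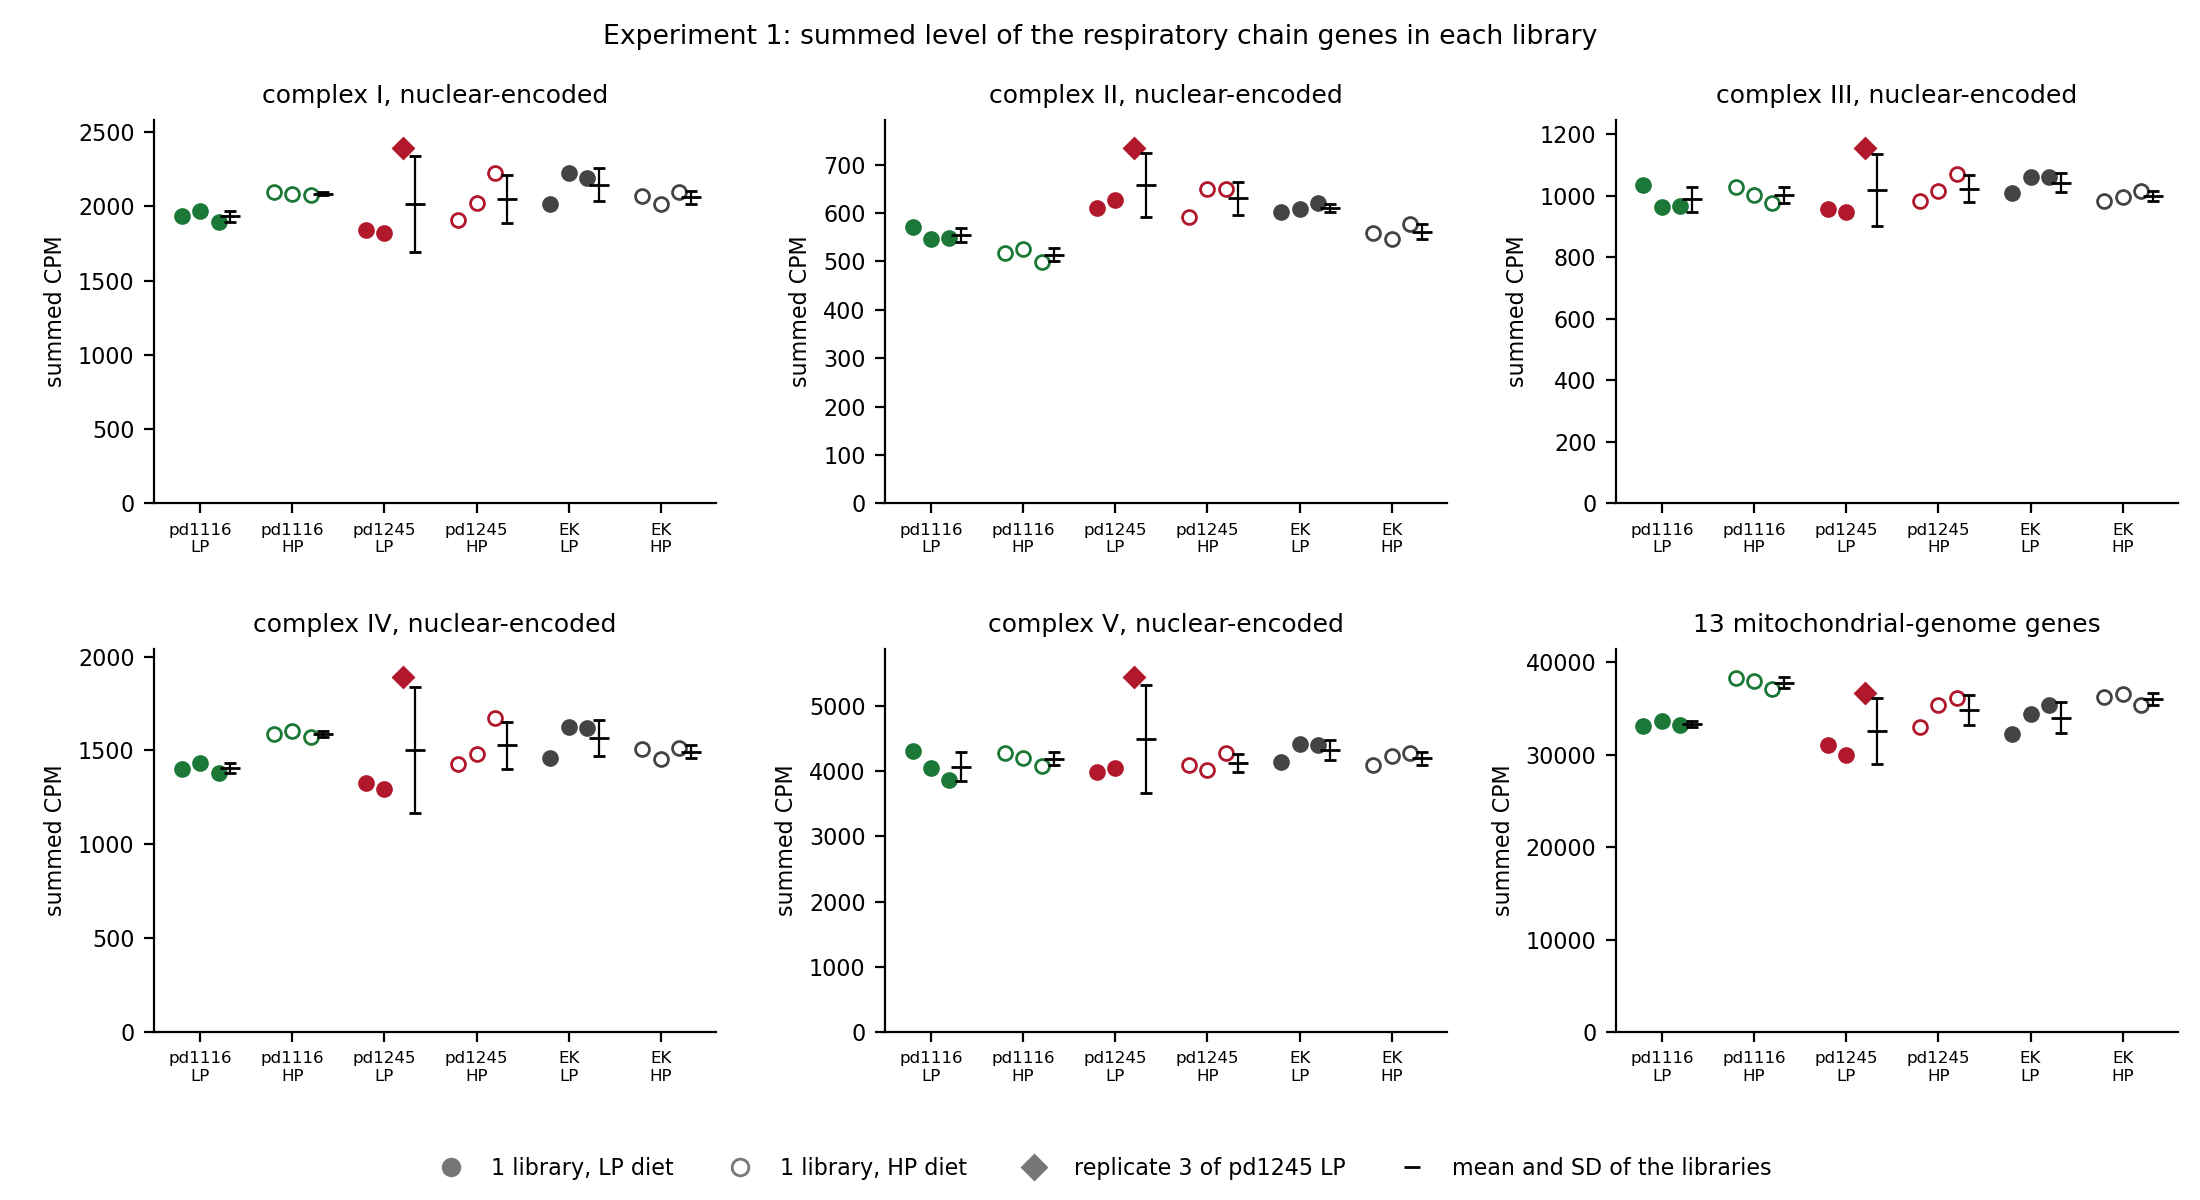
Summed CPM per library of experiment 1 for the nuclear genes of complexes I, II, III, IV and V and for the 13 mitochondrial genes, in 6 groups of 3 libraries (filled LP, open HP, bars mean ± SD, diamond replicate 3 of pd1245 LP). The diamond is the highest pd1245 LP library in every panel, and LP lies below HP without overlap in pd1116 for complexes I and IV and for the mitochondrial genes.

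The mitochondrial genes of complex I encode membrane subunits of its proton-pumping arm. MT-ND1, which lies where ubiquinone enters, stood at 1386, 1354 and 1534 CPM in pd1245 LP, against 1679, 1878 and 1892 CPM in EK LP. Every pd1245 LP library was below every EK LP library (log2 fold change -0.35, SE 0.102, adjusted p = 0.014). The adjusted p was 0.0527 without EK LP replicate 3. Set against the 1840, 1752 and 1964 CPM of pd1245 HP, MT-ND1 was also lower on LP (log2 fold change -0.38, SE 0.102, adjusted p = 0.0167), with an adjusted p of 0.0744 without pd1245 HP replicate 3.

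MT-ND5 and mt-nd4l, further pump subunits, were lower in pd1245 LP in both comparisons as well. MT-ND5 stood at 1542, 1504 and 1087 CPM in pd1245 LP, against 1979, 1803 and 2042 CPM in pd1245 HP and 1838, 1881 and 1948 CPM in EK LP. The lowest value was that of replicate 3, the library in which most other members were highest. The log2 fold change was -0.49 against pd1245 HP (adjusted p = 0.0107, and 0.0535 without pd1245 HP replicate 3) and -0.46 against EK LP (adjusted p = 0.00839). For mt-nd4l the values were 285, 284 and 185 CPM in pd1245 LP, 333, 359.9 and 358 CPM in pd1245 HP and 309, 353 and 377 CPM in EK LP. It fell by 0.48 against pd1245 HP and by 0.46 against EK LP on the log2 scale (adjusted p = 0.0183 and 0.0123). Replicate 3 of pd1245 LP left out, the mt-nd4l fold changes were -0.30 and -0.29 (adjusted p = 0.0337 and 0.0206). The first call was lost without pd1245 HP replicate 3 (adjusted p = 0.0682) and the second without EK LP replicate 3 (adjusted p = 0.0563). The mt-nd4l gene overlaps MT-ND4, and mt-atp8 overlaps MT-ATP6, so their counts depend on how overlapping reads were assigned. Both MT-ND5 and mt-nd4l were higher in pd1116 LP than in pd1245 LP (log2 fold changes 0.38 and 0.44, adjusted p = 0.0361 and 0.0245), each missed under 5 of 13 alternatives. Replicate 3 of pd1245 LP left out, they were 0.23 and 0.27 (adjusted p = 0.0495 and 0.0516). Leaving out any 1 pd1116 LP library gave an adjusted p of 0.0721 to 0.0977 for MT-ND5 and of 0.0523 to 0.0662 for mt-nd4l.

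With all libraries in the fit, the mitochondrial calls between diets in pd1116 were on MT-ND2 and MT-ND3, which are also complex I subunits. Without replicate 3 of pd1245 LP in the shared fit, more were called. Every mitochondrial gene but MT-ND4 and MT-CO1 was then called lower on LP in pd1116 (adjusted p = 0.000337 to 0.0491). MT-ND2 had 1564, 1483 and 1435 CPM in pd1116 LP, against 2127, 2081 and 1924 CPM in pd1116 HP (log2 fold change -0.45, SE 0.11, adjusted p = 0.0194). MT-ND3 had 298, 309 and 314 CPM in pd1116 LP, against 441, 458 and 426 CPM in pd1116 HP (log2 fold change -0.52, SE 0.114, adjusted p = 0.0101). No LP library reached an HP library for either gene. The call on MT-ND3 held when any library was left out, whereas the adjusted p of MT-ND2 was 0.0565 to 0.0799 without any 1 of 4 libraries (pd1116 HP replicate 1, pd1116 HP replicate 2, pd1116 LP replicate 2 and pd1116 LP replicate 3). In pd1245 MT-ND2 and MT-ND3 had log2 fold changes of -0.21 and -0.22 between diets, and in EK -0.12 and -0.03. None of these was called with all libraries. Without replicate 3 of pd1245 LP, both genes were called lower on LP in pd1245 (log2 fold changes -0.33 and -0.36, adjusted p = 0.0121 and 0.0215).

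The other mitochondrial genes of complex I, III and IV passed the test in no comparison with all libraries in the fit. MT-ND4 averaged 1734 ± 40.0 CPM in pd1116 LP and 1970 ± 63.1 CPM in pd1116 HP (SD, n = 3 each). MT-ND6, the only mitochondrial member transcribed from the other strand of that genome, averaged 424 ± 11.7 and 519.7 ± 27.9 CPM in these groups. MT-CYB, the cytochrome b of complex III, averaged 3917 ± 209 CPM in pd1116 LP and 4659 ± 40.9 CPM in pd1116 HP, and 3523 ± 341 CPM in pd1245 LP and 3917 ± 341 CPM in pd1245 HP. Of the catalytic core of complex IV, MT-CO1 averaged 11050 ± 237 CPM in pd1116 LP and 10366 ± 427 CPM in pd1116 HP. It was the mitochondrial gene with a fold change above 0 between diets in pd1116 (log2 fold change 0.09). MT-CO2 and MT-CO3 had log2 fold changes of -0.34 and -0.29 there (adjusted p = 0.143 and 0.204). Both were called lower there without replicate 3 of pd1245 LP (adjusted p = 0.0117 and 0.0041).

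Of the mitochondrial genes of complex V, which encode subunits of the membrane part of the ATP synthase, mt-atp8 was called in pd1245 LP with all libraries. It stood at 116, 107 and 58.8 CPM in pd1245 LP, against 149.5, 159.9 and 162 CPM in pd1245 HP and 123, 157 and 164 CPM in EK LP. All pd1245 LP libraries were below those of both other groups, and replicate 3 was again the lowest. The gene fell by 0.74 against pd1245 HP (SE 0.177, adjusted p = 0.00945) and by 0.65 against EK LP (adjusted p = 0.00964) on the log2 scale. Replicate 3 left out, the fold changes were -0.49 and -0.41 (adjusted p = 0.0129 and 0.0154). Its neighbour MT-ATP6 averaged 1688 ± 286 CPM in pd1245 LP, 2134 ± 168 CPM in pd1245 HP and 1945 ± 192 CPM in EK LP, and was not called with all libraries. Without replicate 3 of pd1245 LP, MT-ATP6 was called lower against pd1245 HP (log2 fold change -0.48, adjusted p = 0.00354) and against EK LP (log2 fold change -0.35, adjusted p = 0.00738). In that fit both genes were also called lower on LP than on HP in pd1116. The log2 fold changes there were -0.52 for mt-atp8 (adjusted p = 0.00291) and -0.245 for MT-ATP6 (adjusted p = 0.0456).

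Nuclear complex I genes were called 6 times in pd1245 LP against EK LP, all lower. NDUFA10, an accessory subunit of the membrane arm, had 75.3, 71.8 and 76.7 CPM in pd1245 LP, against 92.8, 104 and 104 CPM in EK LP. No pd1245 LP library reached an EK LP library, replicate 3 included (log2 fold change -0.42, SE 0.082, adjusted p = 0.000975), and the call held under each of 13 alternatives. It was also lower than the 84.2, 86.8 and 100.2 CPM of pd1245 HP (log2 fold change -0.28, SE 0.082, adjusted p = 0.0255). That adjusted p was 0.134 without pd1245 HP replicate 3 and 0.0641 without pd1245 LP replicate 2. NDUFS8, an iron-sulphur subunit of the core, averaged 128 ± 1.99 CPM in pd1245 LP, 152 ± 9.30 CPM in pd1245 HP and 150.1 ± 5.04 CPM in EK LP. Its log2 fold change was -0.25 against pd1245 HP and -0.24 against EK LP (adjusted p = 0.0248 and 0.021). Against pd1245 HP the adjusted p was 0.106 without pd1245 HP replicate 3 and 0.0523 without pd1245 LP replicate 2, and against EK LP it was 0.0636 and 0.0609 without EK LP replicates 2 and 3. The accessory subunit ndufc2 averaged 40.0 ± 3.99 CPM in pd1245 LP and 52.5 ± 5.55 CPM in EK LP (log2 fold change -0.39, adjusted p = 0.00802). NDUFA9, NDUFB5 and NDUFB6 completed the 6, with log2 fold changes of -0.25, -0.27 and -0.36. These last 3 missed the threshold under 5, 6 and 4 of the 13 alternatives. All were lost without EK LP replicate 2, EK LP replicate 3 or pd1245 LP replicate 2, and NDUFA9 and NDUFB5 also without pd1245 LP replicate 1 (adjusted p = 0.0672 to 0.145). The flavoprotein subunits NDUFV1 and NDUFV2, where NADH is oxidised, had log2 fold changes of 0.01 and 0.00 and were not called.

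A member with few counts, ndufs8b, differed between lines in both experiments. The expression table lists it as a polymorphic pseudogene related by name to NDUFS8. Its counts were 1, 0 and 0 in pd1116 LP, against 19, 10 and 11 in EK LP, a ratio of depth-scaled counts of 0.0263 (exact 95% interval 0.00065 to 0.155, counting error only). Against the 45 counts of pd1245 LP the ratio was 0.0217 (0.000539 to 0.127). On HP, pd1116 had 11 counts, against 66 in pd1245 and 38 in EK. In experiment 2 the adapted pd1245 line had 48 counts over the LP libraries, against 3 in EK LP (ratio 15.9, 5.14 to 80), and 50 over the HP libraries, against 2 in EK HP (ratio 18.9, 4.97 to 160). EK thus had counts of this gene in experiment 1 and nearly none in experiment 2. edgeR called it in pd1116 LP against EK LP (adjusted p = 0.00688), in both comparisons of pd1116 with pd1245 and in both of the adapted line with EK. Without pd1116 LP replicate 3 the first of these had an adjusted p of 0.0516. On HP the adjusted p of pd1116 against pd1245 was 0.0593 without pd1116 HP replicate 3. In experiment 2 the adapted line had 9 to 21 counts per library, against 0 to 2 in EK. There the gene entered the test only through the group where it is high, so its calls add no support beyond these counts.

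Assembly factors build complex I without staying in it. Those of the ndufaf group were called higher in pd1245 LP where they were called there. NDUFAF3 had 54.6, 55.8 and 92.3 CPM in pd1245 LP, against 39.3, 46.6 and 45.9 CPM in EK LP. It was higher in pd1245 LP without overlap (log2 fold change 0.62, SE 0.146, adjusted p = 0.00407), and replicate 3 was far above the other 2. Without that library the log2 fold change was 0.33 (adjusted p = 0.0108). It was higher than in pd1245 HP also (log2 fold change 0.53, adjusted p = 0.0191), with an adjusted p of 0.0678 to 0.0846 without any 1 of 3 libraries (pd1245 HP replicate 1, pd1245 HP replicate 3 and pd1245 LP replicate 3), the last of which left a log2 fold change of 0.24. In pd1116 LP against pd1245 LP it was lower (log2 fold change -0.61, adjusted p = 0.00871), and so was NDUFAF4 (log2 fold change -0.51, adjusted p = 0.044). Replicate 3 of pd1245 LP left out, these were -0.31 (adjusted p = 0.0259) and -0.25 (adjusted p = 0.275). NDUFAF6 was higher in pd1245 LP than in pd1245 HP (log2 fold change 0.49, adjusted p = 0.0419), and NDUFAF1 was higher in pd1116 HP than in pd1245 HP (log2 fold change 0.37, adjusted p = 0.0219). The call on NDUFAF1 was lost without any 1 of 4 libraries (pd1116 HP replicates 1 and 3 and pd1245 HP replicates 1 and 2, adjusted p = 0.057 to 0.1). NDUFAF4 and NDUFAF6 missed the threshold under 8 and 9 of 13 alternatives. NDUFAF4 was lost also without any 1 pd1116 LP library (adjusted p = 0.08 to 0.128), and NDUFAF6 without any 1 library of the groups compared except pd1245 LP replicate 2 (adjusted p = 0.0816 to 0.132). The 4 factors NDUFAF2, NDUFAF5, NDUFAF7 and NDUFAF8 were called nowhere.

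Complex II, succinate dehydrogenase, had no call against EK in any mutant with all libraries in the fit. Its calls with all libraries were between the mutants of experiment 1. Without replicate 3 of pd1245 LP, SDHB and SDHD (ENSDARG00000055712) were also called between diets in pd1116, in opposite directions. In that fit SDHD (ENSDARG00000030139) was called lower in pd1245 LP than in EK LP (log2 fold change -0.278, adjusted p = 0.0293). The flavoprotein SDHA had 295, 303 and 278 CPM in pd1116 HP, against 348, 397 and 377 CPM in pd1245 HP, without overlap (log2 fold change -0.36, SE 0.082, adjusted p = 0.00778), and this call held under each of 13 alternatives. SDHB, the iron-sulphur subunit, had 113, 114 and 107 CPM in pd1116 HP, against 142, 145 and 150.0 CPM in pd1245 HP (log2 fold change -0.39, adjusted p = 0.049). That call was missed under 8 of 13 alternatives and lost when any 1 of the 6 libraries was left out (adjusted p = 0.087 to 0.151), although the groups did not overlap. On LP it had 135, 126 and 128 CPM in pd1116, against 145, 147 and 228 CPM in pd1245 (log2 fold change -0.42, adjusted p = 0.025). The gap on LP came largely from replicate 3, without which the log2 fold change was -0.17 (adjusted p = 0.12). Leaving out any 1 pd1116 LP library also lost it (adjusted p = 0.0503 to 0.0848). SDHD (ENSDARG00000055712), 1 of a pair of genes for a membrane anchor, was higher in pd1116 HP than in pd1245 HP, at 2.72, 2.58 and 3.27 CPM against 1.45, 1.51 and 2.00 CPM (log2 fold change 0.78, adjusted p = 0.0346), a call lost without any 1 of those libraries except pd1245 HP replicate 3 (adjusted p = 0.0539 to 0.14). The other anchor genes, SDHC and SDHD (ENSDARG00000030139), had log2 fold changes of -0.01 and -0.04 there and were called nowhere with all libraries.

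For complex III, UQCRC1, a core subunit on the matrix side, was lower in pd1245 LP. It had 146, 142 and 125 CPM in pd1245 LP, against 165, 168 and 186 CPM in pd1245 HP and 176, 186 and 188 CPM in EK LP. No library of pd1245 LP reached the other groups. Against EK LP the change was called under each of 13 alternatives (log2 fold change -0.41, SE 0.081, adjusted p = 0.0012), and against pd1245 HP under 10 (log2 fold change -0.33, adjusted p = 0.0118, with an adjusted p of 0.066 without pd1245 HP replicate 3). The other core subunit has 2 genes, which were called in opposite directions in different comparisons. UQCRC2 was lower in pd1245 LP than in EK LP (log2 fold change -0.19, adjusted p = 0.0483, missed under 8 of 13 alternatives), while uqcrc2a was higher in pd1245 LP than in pd1245 HP (log2 fold change 0.34, adjusted p = 0.0358, missed under 6). UQCRC2 was lost without any 1 library of the groups compared except pd1245 LP replicate 3 (adjusted p = 0.0744 to 0.1). The fold change of uqcrc2a was 0.16 (adjusted p = 0.174) without pd1245 LP replicate 3, and its adjusted p was 0.0939 and 0.123 without pd1245 HP replicates 1 and 3. CYC1, the cytochrome c1, averaged 154 ± 15.8 CPM in pd1116 HP and 196 ± 5.38 CPM in pd1245 HP (log2 fold change -0.34, adjusted p = 0.0434). It was missed under 7 of 13 alternatives, among them leaving out any 1 library of these groups except pd1116 HP replicate 2 (adjusted p = 0.0718 to 0.198). UQCRFS1, the Rieske iron-sulphur protein, and the small subunits UQCR10, UQCRB, UQCRH and UQCRQ were called nowhere with all libraries.

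In complex IV most calls fell on single paralogues of a subunit. For subunit 4, cox4i1l, a second gene resembling COX4I1, was low in both mutants on LP. It stood at 2.23, 3.37 and 2.48 CPM in pd1116 LP, 2.75, 2.28 and 2.09 CPM in pd1245 LP and 8.06, 8.03 and 7.18 CPM in EK LP. All 6 mutant LP libraries were below all 3 EK LP libraries. The change against EK LP was called in pd1116 (log2 fold change -1.53, SE 0.233, adjusted p = 0.000491) and in pd1245 (log2 fold change -1.70, SE 0.237, adjusted p = 8.11e-05), and both calls held under each of 13 alternatives. On HP the mutants differed from each other, with 10.4, 7.52 and 9.70 CPM in pd1116 HP, 4.01, 3.55 and 7.54 CPM in pd1245 HP and 9.88, 8.58 and 9.33 CPM in EK HP. The pd1245 HP libraries were below EK HP (log2 fold change -0.86, SE 0.213, adjusted p = 0.0271), with replicate 3 well above the others, and the adjusted p was 0.0654 to 0.144 without any 1 of 5 libraries (EK HP replicate 1, EK HP replicate 2, EK HP replicate 3, pd1245 HP replicate 1 and pd1245 HP replicate 2). The pd1116 HP libraries overlapped EK HP (log2 fold change -0.01, adjusted p = 0.994).

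Between diets, cox4i1l was lower on LP in pd1116 (log2 fold change -1.78, SE 0.231, adjusted p = 0.000236), a call that held under each of 13 alternatives. It was lower in pd1245 too (log2 fold change -1.09, SE 0.241, adjusted p = 0.00647), with an adjusted p of 0.0538 without pd1245 HP replicate 3. In EK the difference was not called (log2 fold change -0.25, adjusted p = 0.859). The interaction with EK did not pass in pd1116 (log2 fold change -1.52, adjusted p = 0.123) or pd1245 (log2 fold change -0.83, adjusted p = 0.12). It passed in pd1116 without replicate 3 of pd1245 LP (log2 fold change -1.53, adjusted p = 0.0266). The main gene of the subunit, COX4I1, averaged 217 ± 2.84 CPM in pd1116 LP, 225 ± 7.06 CPM in pd1116 HP, 245 ± 57.2 CPM in pd1245 LP, 238 ± 20.0 CPM in pd1245 HP, 220.0 ± 16.9 CPM in EK LP and 204 ± 12.1 CPM in EK HP. It was called nowhere, nor was COX4I2, a further gene of the subunit.

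**Figure D4:**
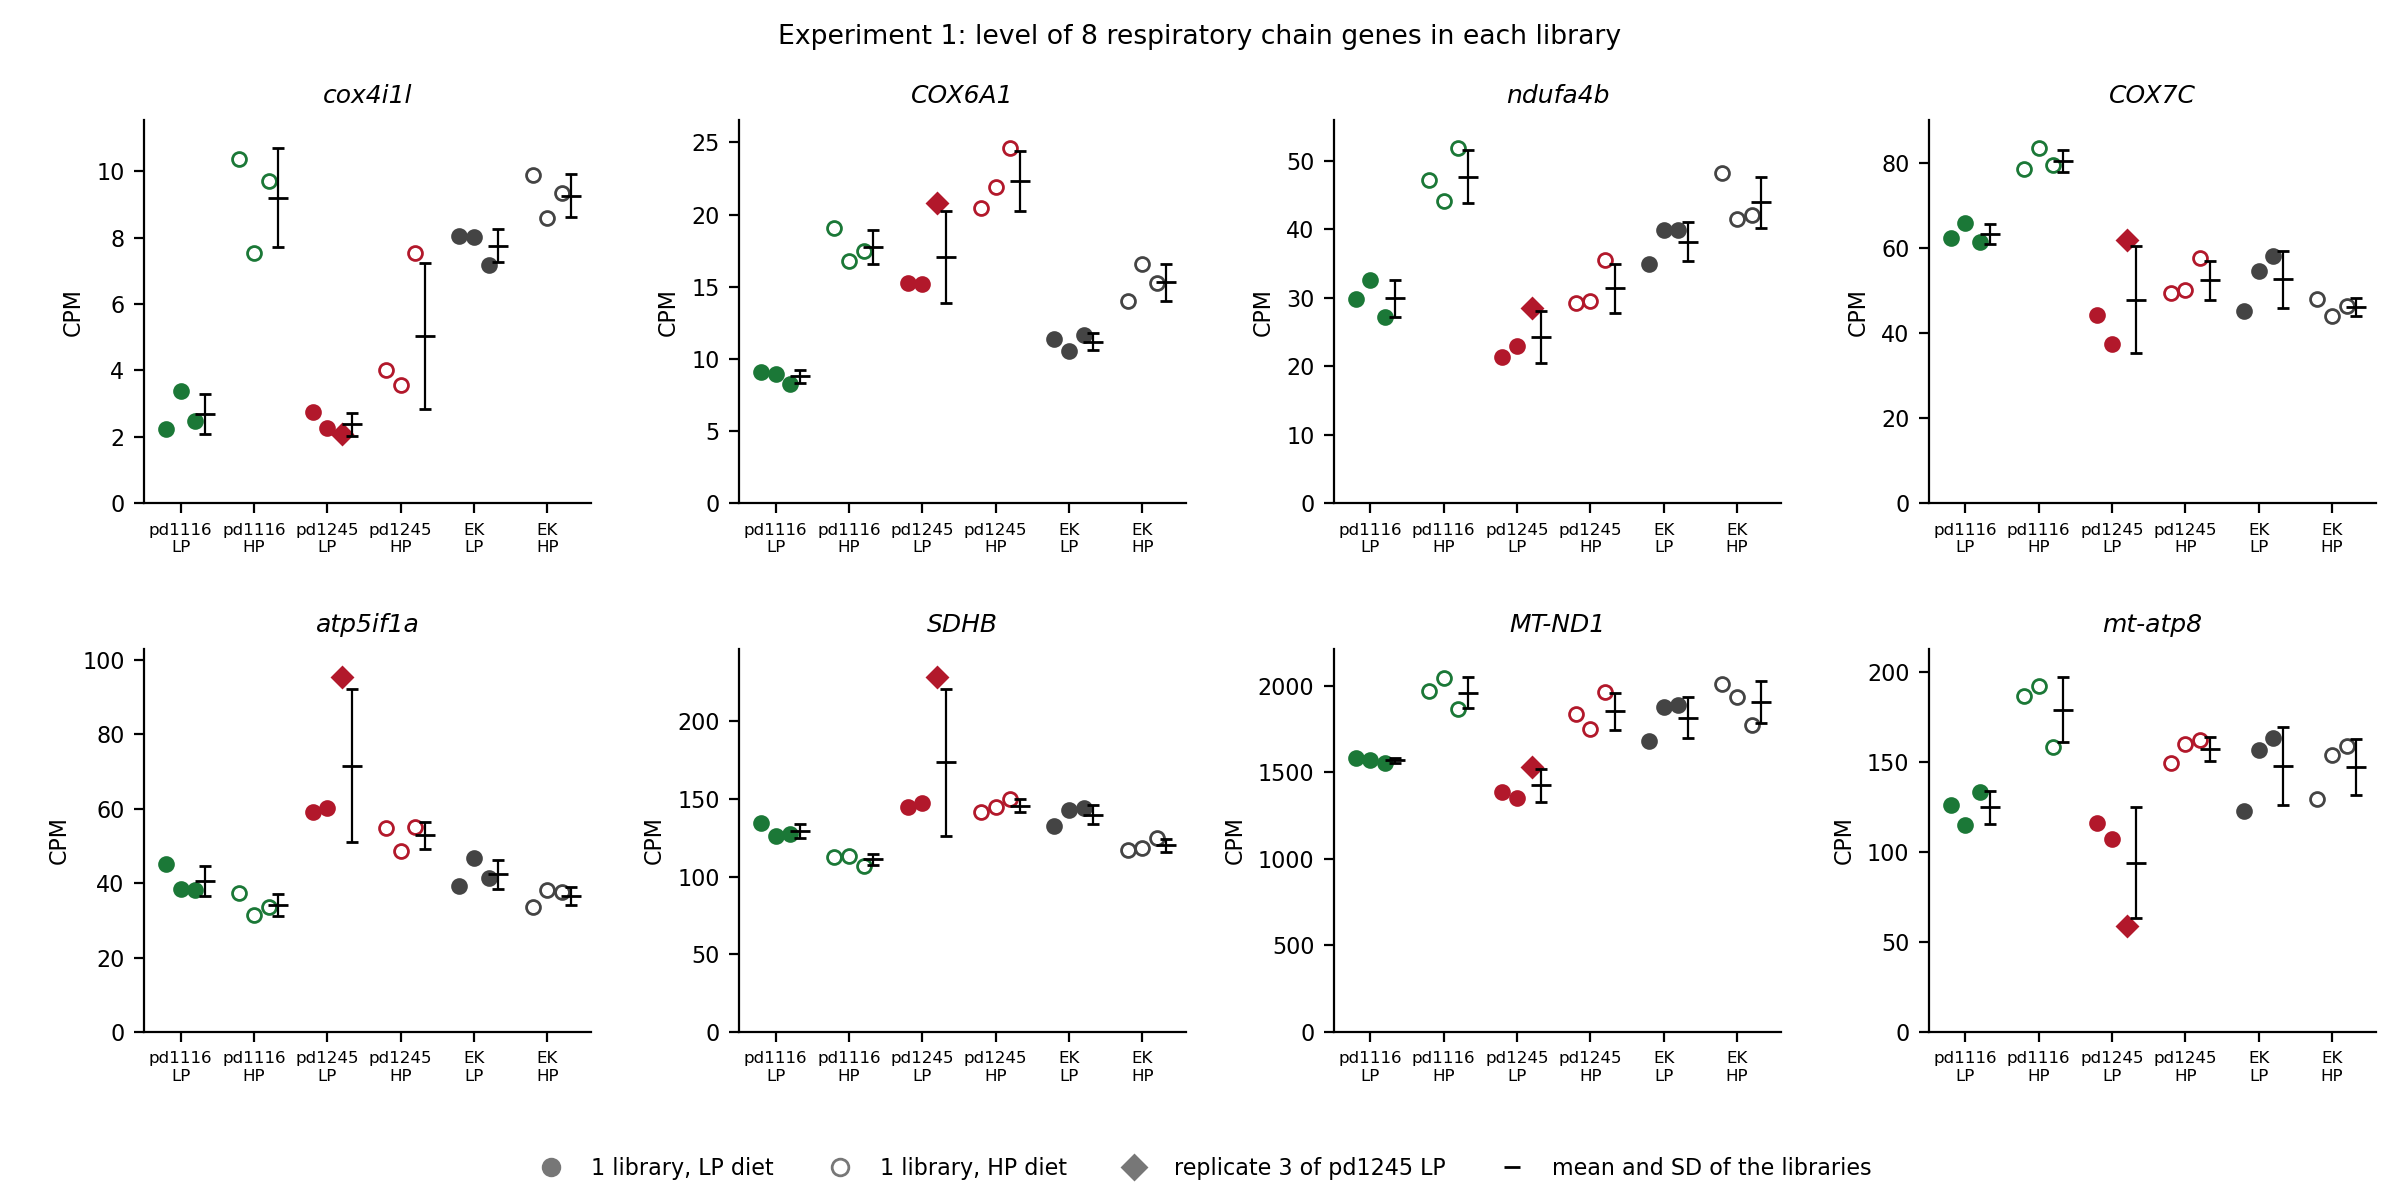
CPM per library of experiment 1 for 8 members in 6 groups of 3 libraries (filled LP, open HP, bars mean ± SD, diamond replicate 3 of pd1245 LP). For cox4i1l all mutant LP libraries are at or below 3.37 CPM and all EK libraries at or above 7.18 CPM.

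For subunit 6a, 1 gene was higher in pd1245 than in EK on both diets, and its level was lower on LP than on HP in all 3 lines. With all libraries in the fit, that diet difference was called in the mutants. COX6A1 (ENSDARG00000054588) stood at 9.10, 8.97 and 8.27 CPM in pd1116 LP and 19.0, 16.8 and 17.5 CPM in pd1116 HP. In pd1245 it had 15.3, 15.2 and 20.8 CPM on LP and 20.5, 21.9 and 24.6 CPM on HP, and in EK 11.4, 10.6 and 11.7 CPM on LP and 14.0, 16.6 and 15.3 CPM on HP. Every pd1245 library was above every EK library of the same diet, and every pd1116 LP library was below every pd1116 HP library. It was higher in pd1245 than in EK on LP (log2 fold change 0.60, SE 0.121, adjusted p = 0.00127) and on HP (log2 fold change 0.55, SE 0.117, adjusted p = 0.0115). In pd1116, LP was lower than HP (log2 fold change -1.02, SE 0.122, adjusted p = 0.000114), and pd1116 LP was lower than pd1245 LP (log2 fold change -0.96, SE 0.123, adjusted p = 6.79e-05). These 4 calls held under each of 13 alternatives. LP against HP in pd1245 was called also (log2 fold change -0.39, adjusted p = 0.0269), but the libraries overlapped and the adjusted p was 0.0693 to 0.125 without any 1 of 3 libraries (pd1245 HP replicate 3, pd1245 LP replicate 1 and pd1245 LP replicate 2). In EK all LP libraries were below all HP libraries as well (log2 fold change -0.45, SE 0.12, adjusted p = 0.199). This difference in EK was called without replicate 3 of pd1245 LP in the shared fit (log2 fold change -0.44, adjusted p = 0.0303). The interaction with EK was -0.57 in pd1116 (adjusted p = 0.223) and 0.06 in pd1245 (adjusted p = 0.865), so no difference in diet response passed the test with all libraries. Without replicate 3 of pd1245 LP the interaction of pd1116 was called lower. Its paralogue cox6a1 (ENSDARG00000022438) averaged 66.0 ± 25.1 CPM in pd1245 LP, 58.6 ± 2.36 CPM in pd1245 HP, 61.7 ± 5.89 CPM in EK LP and 56.2 ± 8.53 CPM in EK HP, and was called nowhere.

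Among the genes for subunit 5b, COX5B (ENSDARG00000068738) had 12.9, 17.3 and 13.9 CPM in pd1116 LP, against 24.3, 26.5 and 26.8 CPM in pd1116 HP. The groups did not overlap (log2 fold change -0.82, SE 0.127, adjusted p = 0.000826). On HP it was also higher in pd1116 than in pd1245, which had 16.04, 16.4 and 18.01 CPM (log2 fold change 0.62, SE 0.125, adjusted p = 0.00305). Both calls held under each of 13 alternatives. A further copy, COX5B (ENSDARG00000113254), was higher in pd1116 HP than in pd1245 HP at 6.16, 5.09 and 6.32 CPM against 4.39, 2.84 and 3.96 CPM (log2 fold change 0.64, adjusted p = 0.0336), and the call was lost without any 1 of 4 libraries (pd1116 HP replicates 1 and 3 and pd1245 HP replicates 2 and 3, adjusted p = 0.0573 to 0.156). The remaining copy, COX5B (ENSDARG00000015978), averaged 192 ± 5.08 CPM in pd1116 LP and 177 ± 8.61 CPM in pd1116 HP and was called nowhere with all libraries. Without replicate 3 of pd1245 LP it was called lower in pd1116 HP than in pd1245 HP (log2 fold change -0.215, adjusted p = 0.032). How reads of near-identical copies were split is not stated, so values of single copies are uncertain. Of the genes for subunit 5a, COX5A and cox5aa were called nowhere with all libraries.

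Subunit 7 genes moved in several directions. COX7C was high in pd1116 HP, at 78.5, 83.4 and 79.4 CPM, against 49.5, 50.0 and 57.6 CPM in pd1245 HP and 48.0, 43.9 and 46.3 CPM in EK HP. No library overlapped, and the difference was called against EK (log2 fold change 0.80, SE 0.135, adjusted p = 0.00157) and against pd1245 (log2 fold change 0.62, SE 0.135, adjusted p = 0.00521), under each of 13 alternatives in both. On LP, COX7C had 62.4, 65.9 and 61.4 CPM in pd1116, 44.1, 37.4 and 62.0 CPM in pd1245 and 45.1, 54.5 and 58.1 CPM in EK (log2 fold change 0.41, adjusted p = 0.0417 for pd1116 against pd1245, log2 fold change 0.27, adjusted p = 0.27 against EK). The call on LP was missed under 6 of 13 alternatives, being lost without any 1 library of the 2 groups except pd1245 LP replicate 3 (adjusted p = 0.0702 to 0.157). With that replicate left out, it was 0.64 (adjusted p = 0.000602). The muscle-type isoform cox7a1 had 14.7, 16 and 14.5 CPM in pd1116 LP, against 24.2, 24.7 and 26.6 CPM in pd1116 HP (log2 fold change -0.74, adjusted p = 0.0275), with an adjusted p of 0.0581 to 0.107 without any 1 of 6 libraries (pd1116 HP replicate 1, pd1116 HP replicate 2, pd1116 HP replicate 3, pd1116 LP replicate 1, pd1116 LP replicate 2 and pd1116 LP replicate 3). It was higher in pd1116 HP than in pd1245 HP (log2 fold change 0.77, adjusted p = 0.0132), with an adjusted p of 0.0533 without pd1116 HP replicate 3 and 0.0603 without pd1245 HP replicate 1. Both genes named COX7A2 were lower in pd1245 LP than in EK LP, ENSDARG00000110700 by 0.56 (adjusted p = 0.00473) and ENSDARG00000053217 by 0.29 (adjusted p = 0.0475) on the log2 scale. The second of these missed the threshold under 6 of 13 alternatives, among them leaving out EK LP replicate 2 or 3 or pd1245 LP replicate 1 or 2 (adjusted p = 0.122 to 0.152), and it was -0.44 without pd1245 LP replicate 3. COX7A2L, which takes part in joining complexes III and IV, was lower in pd1116 LP than in pd1245 LP (log2 fold change -0.34, adjusted p = 0.0309). Its log2 fold change was -0.16 (adjusted p = 0.168) without replicate 3 of pd1245 LP, and the call was lost without any 1 pd1116 LP library too (adjusted p = 0.0603 to 0.0979).

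Of the subunit 8 genes, cox8b was called and cox8a was not. The values of cox8b were 21.6, 25.7 and 23.7 CPM in pd1116 LP, 34.6, 31.9 and 38.7 CPM in pd1116 HP and 31.6, 36.1 and 35.9 CPM in EK LP. It was lower in pd1116 LP than in pd1116 HP (log2 fold change -0.57, adjusted p = 0.0231) and than in EK LP (log2 fold change -0.55, adjusted p = 0.0273), each missed under 4 of 13 alternatives. Both calls were lost without pd1116 LP replicate 1 or 3, the first also without pd1116 HP replicate 1 or 3 and the second without EK LP replicate 2 or 3 (adjusted p = 0.0618 to 0.116). It was lower in pd1245 LP than in EK LP too (log2 fold change -0.42, adjusted p = 0.0304, missed under 5), and by more without pd1245 LP replicate 3 (-0.64, adjusted p = 0.000928). The small subunit cox7b was lower in pd1245 LP than in EK LP (log2 fold change -0.34, adjusted p = 0.0439, missed under 5), and at -0.56 (adjusted p = 0.000374) without pd1245 LP replicate 3. For cox8b and cox7b this call was lost without EK LP replicate 2 or 3 or pd1245 LP replicate 1 or 2 (adjusted p = 0.0824 to 0.158). The subunit 6b and 6c genes cox6b1, cox6b2 and cox6c were called nowhere with all libraries in the fit.

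The NDUFA4 family, first assigned to complex I and since found with complex IV, had 1 member with repeated calls, ndufa4b. It had 29.9, 32.5 and 27.3 CPM in pd1116 LP, against 47.2, 44.1 and 51.8 CPM in pd1116 HP (log2 fold change -0.68, SE 0.116, adjusted p = 0.00199). In pd1245 it had 21.3, 23.0 and 28.6 CPM on LP and 29.2, 29.5 and 35.5 CPM on HP, and in EK 34.9, 39.8 and 39.8 CPM on LP and 48.3, 41.5 and 42.1 CPM on HP. No pd1245 library reached an EK library of the same diet. It was lower in pd1245 than in EK on LP (log2 fold change -0.66, SE 0.117, adjusted p = 0.000555) and on HP (log2 fold change -0.48, SE 0.115, adjusted p = 0.0221). On HP it was higher in pd1116 than in pd1245 (log2 fold change 0.60, adjusted p = 0.002). The calls between diets in pd1116, against EK on LP and between mutants on HP held under each of 13 alternatives. In pd1245 ndufa4b was called lower on LP too (log2 fold change -0.375, adjusted p = 0.0332), missed under 4 of 13. In EK every LP library was below every HP library (log2 fold change -0.203, adjusted p = 0.732). With all libraries its interaction with EK was not called in pd1116 (-0.473, adjusted p = 0.259) or pd1245 (-0.172, adjusted p = 0.554). The call against EK on HP had an adjusted p of 0.0512 to 0.112 without any 1 of 4 libraries (EK HP replicate 1, EK HP replicate 2, pd1245 HP replicate 1 and pd1245 HP replicate 2). NDUFA4, its paralogue, averaged 143 ± 6.13 CPM in pd1116 LP and 182 ± 4.35 CPM in pd1116 HP and was called nowhere, nor were NDUFA4L2 and ndufa4l2b.

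In complex V the member with the most calls was atp5if1a, an inhibitor that blocks ATP hydrolysis by the synthase. It had 45.1, 38.5 and 38.1 CPM in pd1116 LP and 37.2, 31.4 and 33.5 CPM in pd1116 HP. In pd1245 it had 59.1, 60.2 and 95.3 CPM on LP and 54.7, 48.7 and 55.1 CPM on HP, and in EK 39.1, 46.7 and 41.2 CPM on LP and 33.7, 38.2 and 37.7 CPM on HP. All pd1245 libraries were above all libraries of the other lines on the same diet. It was higher in pd1245 than in EK on LP (log2 fold change 0.75, SE 0.144, adjusted p = 0.000908), under each of 13 alternatives, and the log2 fold change was 0.49 (adjusted p = 0.00135) without replicate 3 of pd1245 LP. On HP the call against EK (log2 fold change 0.53, adjusted p = 0.0429) was missed under 7 of 13, among them each of the 6 libraries left out in turn (adjusted p = 0.0728 to 0.131). The gene was lower in pd1116 than in pd1245 on LP (log2 fold change -0.82, adjusted p = 0.0011) and on HP (log2 fold change -0.63, adjusted p = 0.00715). The second inhibitor gene, atp5if1b, was lower in pd1116 LP than in pd1245 LP (log2 fold change -0.45, adjusted p = 0.0329), a difference of -0.18 (adjusted p = 0.232) without replicate 3 of pd1245 LP. Leaving out any 1 pd1116 LP library also lost that call (adjusted p = 0.0643 to 0.103).

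Other complex V calls were few with all libraries in the fit. The c-subunit gene atp5mc1, a part of the rotor, had 110.5, 103 and 113 CPM in pd1245 LP, against 123, 148 and 147 CPM in EK LP (log2 fold change -0.35, SE 0.097, adjusted p = 0.00973). Its paralogues ATP5MC3 and atp5mc3b had log2 fold changes of -0.16 and 0.08 there and were called nowhere with all libraries. Without replicate 3 of pd1245 LP these were -0.43 (adjusted p = 0.00308) and -0.19 (adjusted p = 0.132). The small membrane subunit gene atp5md was lower in pd1245 LP than in EK LP (log2 fold change -0.34, adjusted p = 0.041), missed under 5 of 13 alternatives, and was at -0.54 (adjusted p = 0.000951) without pd1245 LP replicate 3. The call was lost without EK LP replicate 2 or 3 or pd1245 LP replicate 1 or 2 (adjusted p = 0.0803 to 0.16). The catalytic subunits ATP5F1A and ATP5F1B averaged 797 ± 53.5 and 1015 ± 104 CPM in pd1245 LP, and 735 ± 20.8 and 883 ± 20.6 CPM in EK LP, and were called in no comparison. No gene of the stalk and membrane subunits ATP5PB, ATP5PD, ATP5PF, ATP5PO, ATP5MG, atp5mf and atp5mj was called either with all libraries. Without replicate 3 of pd1245 LP, all of these but ATP5MG were called lower in pd1245 LP than in EK LP. Their log2 fold changes then ran from -0.26 for ATP5PO to -0.50 for atp5mj (adjusted p = 0.00145 to 0.0359).

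Experiment 2 asked how the adapted pd1245 line differed from EK. In adapted pd1245 LP against EK LP, 1 member was higher and 1 lower, when 0.924% and 1.44% of all 16671 genes tested were. In adapted pd1245 HP against EK HP, 1 was higher and 1 lower, when 0.54% and 0.9% of all genes were. The higher gene was ndufs8b and the lower cox4i1l in both. As given above, ndufs8b entered the test only through the adapted line, where it is high. On LP all mutant libraries were above all EK libraries in 5 members (4.27%, against 3.61% of all genes) and below them in 8 (6.84%, against 4.12%). On HP the counts were 7 above (5.98%, against 8.18%) and 3 below (2.56%, against 8.33%). With only the groups compared in the fit, ndufs8b had too few counts to be tested on LP, and cox4i1l was the 1 call. The cox4i1l values were 2.89, 1.98, 3.38 and 5.26 CPM in adapted pd1245 LP, against 6.66, 5.37, 8.97 and 9.79 CPM in EK LP (log2 fold change -1.18, SE 0.248, adjusted p = 0.0117). On HP they were 4.96, 3.28 and 4.46 CPM in adapted pd1245, against 10.9, 9.00 and 9.78 CPM in EK (log2 fold change -1.24, SE 0.282, adjusted p = 0.0307). Mutant and EK libraries did not overlap on either diet. The adjusted p on LP was 0.0552 without EK LP replicate 4 and 0.0502 without adapted pd1245 LP replicate 2, and on HP it was 0.0552 to 0.16 without any 1 of 6 libraries (EK HP replicate 1, EK HP replicate 2, EK HP replicate 3, adapted pd1245 HP replicate 1, adapted pd1245 HP replicate 2 and adapted pd1245 HP replicate 3). COX6A1 (ENSDARG00000054588) had 49.0, 48.3, 42.8 and 47.2 CPM in adapted pd1245 LP, against 24.6, 23.2, 40.3 and 35.1 CPM in EK LP (log2 fold change 0.61, adjusted p = 0.0903), and on HP 58.9, 60.8 and 39.3 CPM against 39.3, 27.5 and 34.0 CPM (log2 fold change 0.65, adjusted p = 0.15), so neither difference passed. For atp5if1a the log2 fold changes were 0.19 on LP and 0.27 on HP, and for ndufa4b -0.08 and 0.10, none of them called.

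Between diets, the adapted line had most members lower on LP, though none passed the test. Fold changes of 106 of 117 members lay below 0, with a median of -0.24 against 0.01 over all genes. By class these were 38 of 39 nuclear genes of complex I, all 20 of complex IV, 18 of 20 of complex V, 8 of 9 of complex III and 12 of 13 mitochondrial genes. All LP libraries were below all HP libraries in 55 members (47%, against 11.3% of all genes), and above them in none (10.4% of all genes). edgeR called no member, when 1.1% of all genes were higher and 0.78% lower. At an unadjusted p under 0.05, 37 members were lower and none higher. The share of all genes at that threshold is not given here, so this count stands without a background. DESeq2 called 11, all lower, and edgeR called 7 without EK HP replicate 2, 1 without adapted pd1245 HP replicate 2 or LP replicate 1, and 2 with only these groups in the fit. For these fits too, no share of all genes is given. COX5A, an example, had 142, 120.2, 138 and 139 CPM in adapted pd1245 LP, against 196, 234 and 160.2 CPM in adapted pd1245 HP (log2 fold change -0.54, SE 0.223, adjusted p = 0.186). Summed nuclear members came to 14449, 13873, 14796 and 14847 CPM in adapted pd1245 LP, against 18657, 16715 and 15331 CPM in adapted pd1245 HP, and no LP library reached an HP library.

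EK larvae of experiment 2 also had more members below than above 0 on LP. Of 117 members, 87 were below 0, with a median of -0.12, and in 18 of them all LP libraries were below all HP libraries (15.4%, against 4.93% of all genes). No member was called by edgeR, when 0.018% of all genes were higher and 0.06% lower. At an unadjusted p under 0.05, 1 was higher and 17 lower, and DESeq2 called 2. These last counts have no share of all genes beside them. Without EK HP replicate 2 the median was -0.20. The interaction of line and diet called no member with edgeR or DESeq2 (0% of all genes in either direction) and had none at an unadjusted p under 0.05. Its median over the members was -0.12 with all libraries, and -0.04 without EK HP replicate 2. For cox4i1l the interaction was 0.05 on the log2 scale.

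**Figure D5:**
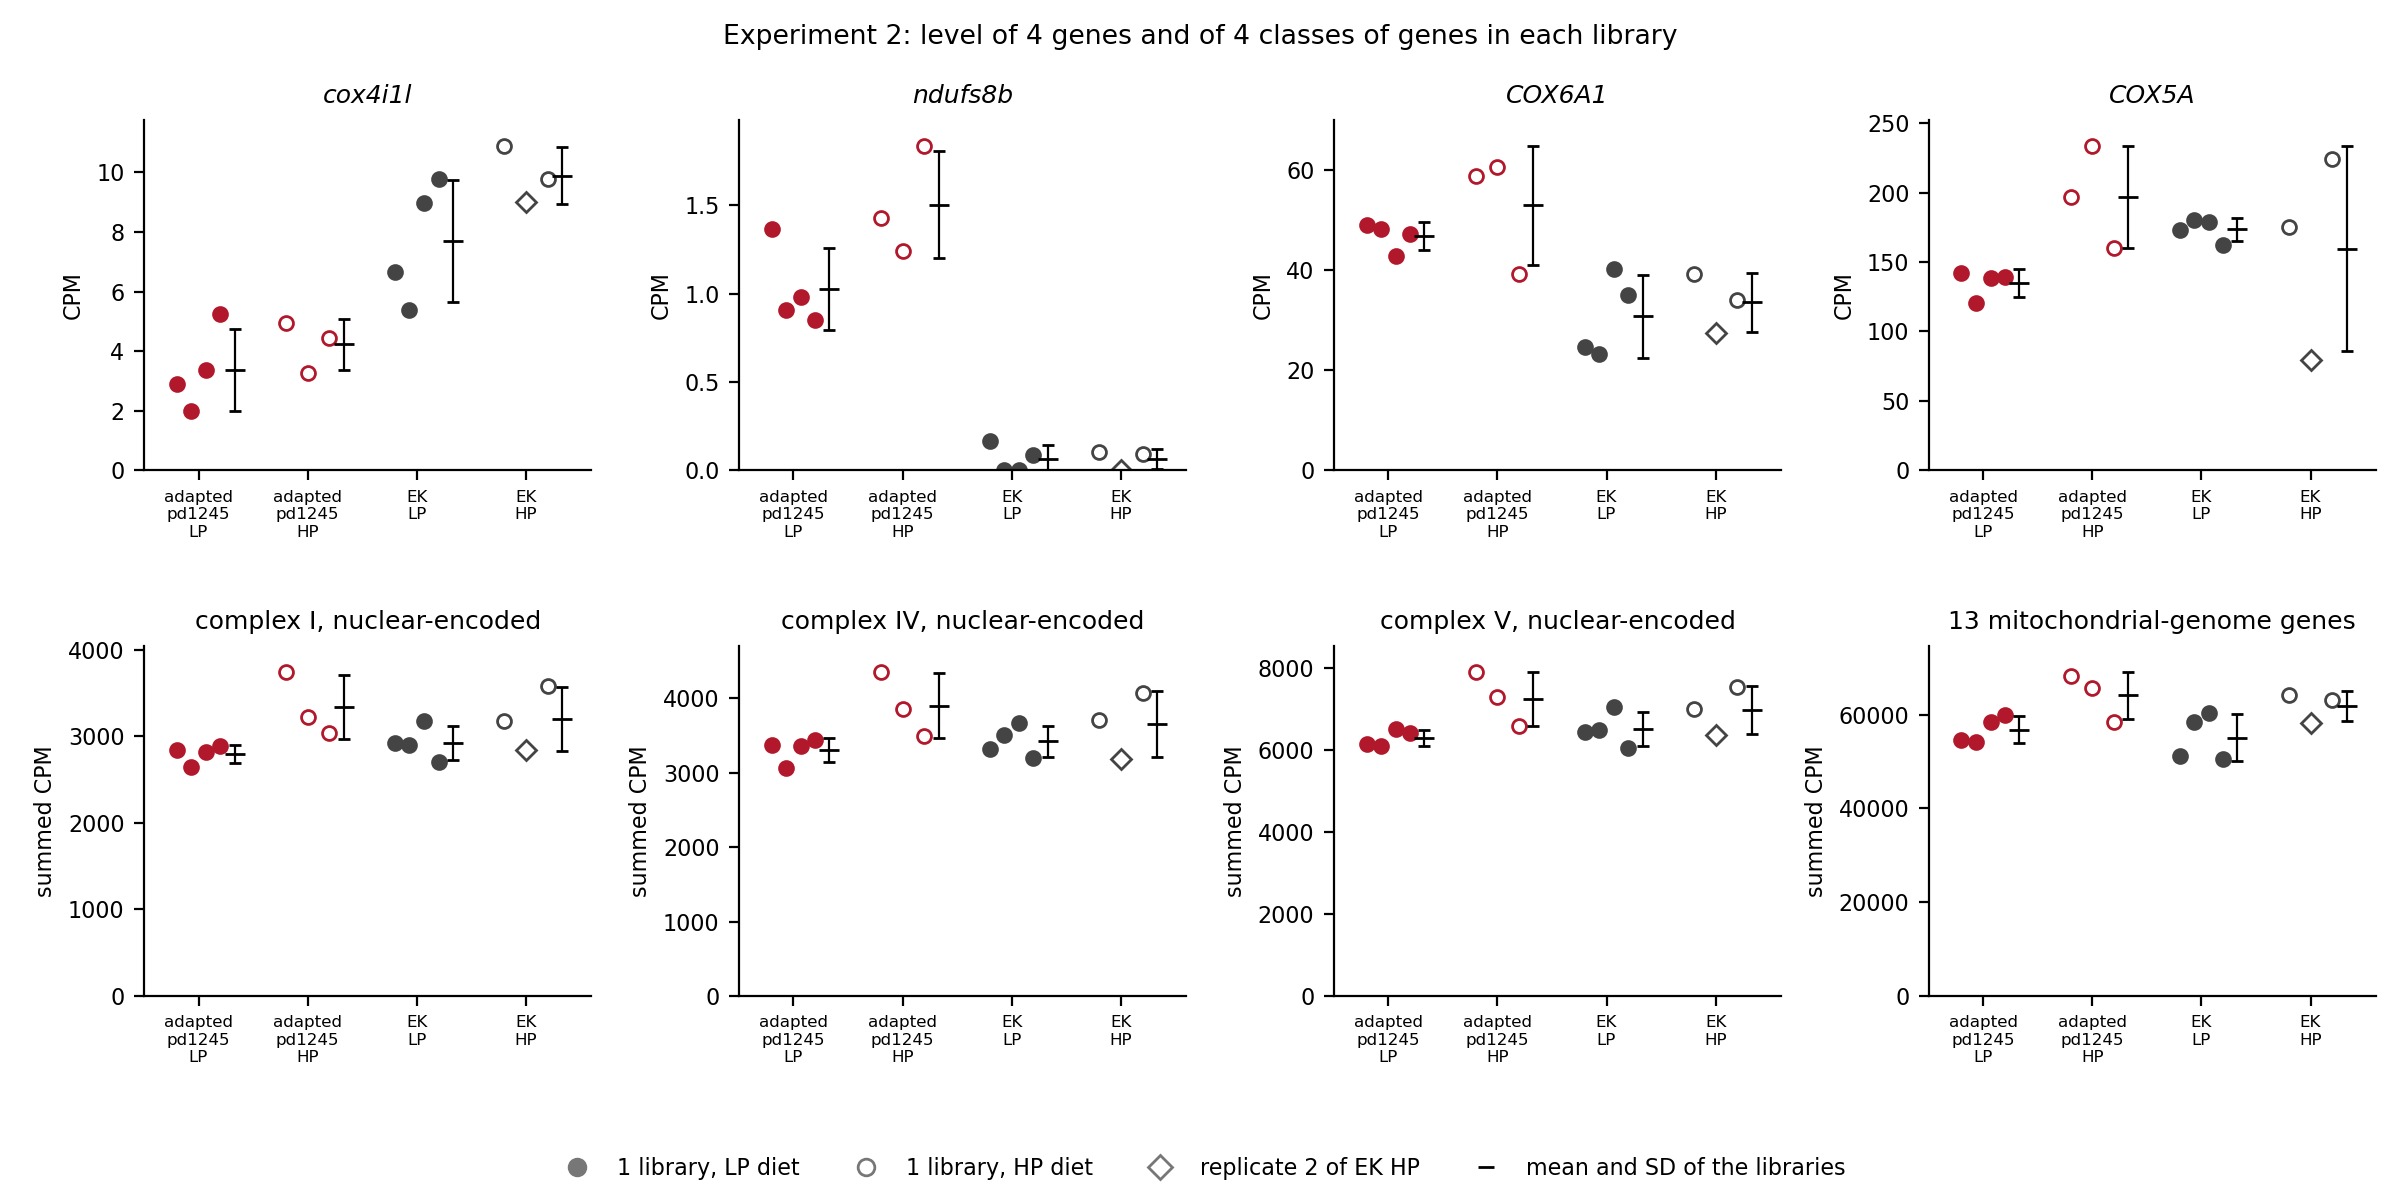
CPM per library of experiment 2 for cox4i1l, ndufs8b, COX6A1 (ENSDARG00000054588) and COX5A, and summed CPM of nuclear complexes I, IV and V and of the 13 mitochondrial genes (filled LP, open HP, bars mean ± SD, diamond EK HP replicate 2). For cox4i1l all adapted pd1245 libraries are below all EK libraries of the same diet.

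Genes that act around the respiratory chain were read from a list of 192 genes, of which 187 were tested in experiment 1 and 186 in experiment 2. In pd1245 LP against EK LP, 32 were higher and 15 lower (17.1% and 8.02%, against 16% and 15.8% of all genes), with a median log2 fold change of 0.05. Without replicate 3 of pd1245 LP, 21 were higher and 28 lower, when 12.9% and 14.5% of all genes were, and the median was -0.08. Among 13 genes that copy and transcribe mitochondrial DNA, 4 were higher and 3 lower. TFAM, the packaging and transcription factor of that genome, had a log2 fold change of -0.46 and the nuclease MGME1 one of -0.92, against 0.78 for TFB1M and 0.81 for mterf3, and all 4 were called without replicate 3 as well. Of 13 genes of mitochondrial RNA processing, 5 were higher and none lower, among them SUPV3L1 at 0.67. Mitochondrial ribosomal proteins gave 5 higher and 5 lower of 75 with all libraries, but 3 higher and 16 lower without replicate 3. The citric acid cycle gave 6 higher and 2 lower of 14, and 5 and 1 without replicate 3. Of 9 regulators of mitochondrial biogenesis, 3 were higher, among them the coactivator genes pprc1 at 1.47 and PPARGC1A at 0.42, and NRF1 was lower at -0.21. Assembly factors of complex I outside the ndufaf group gave 1 higher and 2 lower of 8, namely FOXRED1 at -0.85 and ACAD9 at -0.63, the last of which was at -0.38 without replicate 3. In pd1116 LP against EK LP the whole list gave 1 higher and 8 lower (0.535% and 4.28%, against 2.82% and 3.86% of all genes). In pd1116 LP against pd1245 LP it gave 5 higher and 44 lower (2.67% and 23.5%, against 9.89% and 10.3%), but 7 higher and 15 lower without replicate 3, when 7.29% and 5.52% of all genes were. LP against HP gave 17 higher and 6 lower in pd1245 (9.09% and 3.21%, against 9.33% and 9.78%), and 9 and 10 without replicate 3. It gave 2 higher and 1 lower in pd1116 (1.07% and 0.535%, against 2.76% and 4.04%), and none in EK of experiment 1, where an unadjusted p under 0.05 was reached by 2 in each direction. In the adapted line, 1 was higher and 5 lower on LP, when 1.1% and 0.78% of all genes were, with a median of -0.23.

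Markers of tissues with many mitochondria, and of others, moved with some of these comparisons, and their part in the results was not tested. In pd1245 LP against EK LP all 4 erythrocyte markers tested were lower, with summed levels of 281.7 to 323.6 CPM in pd1245 LP and 631 to 643.5 CPM in EK LP. Heart markers gave 3 lower of 9 and none higher, with sums of 155.5 to 161 CPM in pd1245 LP and 184 to 191 CPM in EK LP. Fast muscle markers gave 2 higher and 3 lower of 13, with sums of 48435 to 75412 CPM in pd1245 LP and 52147 to 61104 CPM in EK LP. Hepatocyte markers gave 2 lower of 4, with sums of 1242 to 1342 CPM in pd1245 LP and 3461 to 3753 CPM in EK LP, and enterocyte markers 4 lower of 5, with overlapping sums. Slow muscle markers gave 2 lower of 5 and keratinocyte markers 1 lower of 5, ionocyte markers 1 higher and 2 lower of 10, and neuron markers 3 higher and 1 lower of 6. Of 79 cytosolic ribosomal protein genes, 49 were higher and none lower (62% higher, against 16% of all genes), but 12 were higher and 1 lower without replicate 3 of pd1245 LP. Without that library all 4 hepatocyte, 5 of 13 fast muscle and 1 of 5 slow muscle markers were lower, 2 neuron markers and no ionocyte marker were higher, and the counts lower in the other marker lists named here did not change. In LP against HP in pd1116, 2 of 4 erythrocyte markers were lower, with sums of 429 to 615.7 CPM on LP and 705.3 to 863 CPM on HP, 1 of 4 hepatocyte markers was lower, and no heart marker was called. Each marker list had counts in every group, and at most 1 gene of a list was at 0 in a group, as was 1 erythrocyte gene in both pd1245 groups of experiment 1. In adapted pd1245 LP against EK LP, 1 ionocyte marker was lower and no marker of the other lists was called.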

How the data were processed

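Gene expression was measured by RNA-seq of whole zebrafish larvae, in 18 libraries of experiment 1 (strand-specific, poly(A), dUTP, per the labels' protocols) and 14 of experiment 2 (stranded and single-end, with molecular identifiers). The submitters' processing notes list HTSeq 0.11.1, STAR 2.7.3a, Trim Galore 0.6.5 and FastQC 0.11.7 for experiment 1. For experiment 2 they list Subread 2.1.1 (featureCounts), STAR 2.7.11, fastp 0.24.0, FastQC 0.12.1, MultiQC 1.32 and SAMtools 1.22.1. The build was GRCz11. The annotation release, strand setting, handling of overlapping genes and use of the identifiers are not given in the sources used here.

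For experiment 1 the authors deposited raw gene counts. Reads outside genes (11.92 to 14.27% of a library) and ambiguous reads (2.49 to 2.80%) were left out of library sizes. For experiment 2 the deposited values are estimated counts, which were rounded; per library, 78.3 to 84.9% of its nonzero values lay within 0.005 of a whole number. CPM columns that the authors made in that table, and a table of transformed values, were used for no result. Spike-in rows, 92 in number, were left out.

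Each experiment was fitted apart with edgeR 4.0.16 (R 4.3.3), all groups in 1 fit, with TMM scaling, filterByExpr, the quasi-likelihood F test, 2-sided, and Benjamini-Hochberg adjustment at a threshold of 0.05. CPM in the text is the count over the TMM-scaled library size. SE was taken from the fold change and the square root of its F. Biological variation (edgeR's common coefficient) came to 12.5% and 16.04% in experiments 1 and 2. The procedure was tested on simulated counts. Intervals for ndufs8b are conditional on the summed counts.

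The symbol rule for members used no expression value. That rule, the lists and the tests were chosen with earlier results of these data known. Named by rule were, in each comparison, up to 8 called members in each direction with the smallest p and a mean of at least 2 CPM, all mitochondrial members, the paralogue families of complexes IV and V, complex II, and up to 4 called genes of each further list. Further members of complexes I, III, IV and V were named after their values were seen. Symbols came from the expression table. A separate gene name table held 118 members, all but ndufs8b.

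Libraries of the same number were not taken as paired, since matched libraries all correlated above 0.1 in 0 of 15 group pairs (experiment 1) and 0 of 6 (experiment 2). Alternatives were RLE scaling, no filter, mitochondrial rows left out of library sizes, only the groups compared in the fit, a replicate block, DESeq2 1.42.0 and each library left out in turn. Fits of only the groups compared without the library that stands apart were added after the data were seen.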

Additional observations from a re-analysis of the deposited data

Results flagged for a closer look

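In the groups of 4 libraries, which exist on LP in experiment 2, the gap between the highest or lowest library and its neighbour was divided by the group's range, and 11 of 153 groups examined were above the critical value of 0.829. Chance flags about 1 in 20 groups. Replicate 2 of adapted pd1245 LP was the lowest for 4 genes: NDUFB5 at 95.8 CPM, against 109 to 110.2 in the others (gap 0.917), COX5A at 120.2 CPM (0.839), and the COX7A2 genes ENSDARG00000053217 at 158.5 CPM (0.897) and ENSDARG00000110700 at 26.95 CPM (0.849). For cox6b2, replicate 4 of adapted pd1245 LP was the highest, at 395 CPM (0.841). Replicate 3 of EK LP was the highest for ndufc2 at 75.7 CPM (0.945), cox7a1 at 48.6 CPM (0.933), atp5if1a at 76.2 CPM (0.862) and the summed mitochondrial genes of complex I at 10560 CPM (0.98). Replicate 4 of EK LP was the lowest for mt-atp8 at 157.6 CPM, against 225 to 232 in the others (0.915), and for atp5mc3b at 1209 CPM, against 1421 to 1430 (0.959).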

How the results depend on the processing

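The number of members called depended on which libraries shared the fit. No share of all genes is given beside the counts in this section, so they describe the fits and not the members alone. With only the groups compared, the counts were 6 in pd1245 LP against EK LP, 19 in pd1116 LP against EK LP, 2 in pd1116 HP against EK HP, 1 and 21 in pd1116 against pd1245 on LP and HP, 0 and 40 in LP against HP in pd1245 and pd1116, 10 in the interaction of pd1116, 1 in adapted pd1245 LP against EK LP and 2 in LP against HP in the adapted line. When the library that stands apart was also left out, they were 73 in pd1245 LP against EK LP and 6 in LP against HP in pd1245. DESeq2 called 13 in LP against HP in pd1116, 6 and 1 in the interactions of pd1245 and pd1116, 11 in LP against HP in the adapted line and 2 in EK of experiment 2. RLE scaling called 1 in the interaction of pd1245.

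Leaving out 1 library gave 12 to 65 calls in pd1245 LP and 1 to 8 in pd1245 HP against EK, 1 to 22 in pd1116 LP and 1 to 3 in pd1116 HP against EK, 4 to 22 and 5 to 26 in pd1116 against pd1245 on LP and HP, 1 to 28 in LP against HP in pd1245, 5 to 33 in pd1116, 0 to 1 in EK of experiment 1, 0 to 12 and 0 to 6 in the interactions of pd1245 and pd1116, 1 to 3 and 1 to 2 in the adapted line against EK on LP and HP, and 0 to 7 in LP against HP in the adapted line. Of 83 calls of a member in a comparison, DESeq2 kept 83, and so did leaving the mitochondrial rows out of library sizes; RLE scaling kept 82 and no filter 76. With only the groups compared, 37 of the 80 that could be tested were kept, and leaving out 1 library kept 361 of 533. None of the 83 reversed. The 3 members below, which were not called with all libraries, changed sign and were called in pd1245 LP against EK LP with only these groups and without replicate 3: MT-CO3 (-0.17, adjusted p = 0.0362), cox6a1 (ENSDARG00000022438, -0.27, adjusted p = 0.0332) and atp5mc3b (-0.19, adjusted p = 0.0372). With a replicate block, 74 of the 83 calls were kept, the count was 25 in pd1245 LP against EK LP and 11 in LP against HP in pd1245, and no count moved by over 1.5 times; the numbers do not pair the libraries. The cause of these changes was not tested. Depth limits the low genes, of which ndufs8b rests on 1 to 66 counts per group.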

Other observations

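Several members stood at unlike levels in the 2 experiments, whose library methods differ, so the levels are given without a test. NDUFS1, the large iron-sulphur subunit of complex I, had 6 counts over all of experiment 1 and averaged 38.8 ± 2.17 CPM in adapted pd1245 LP (SD, n = 4) and 39.7 ± 3.94 CPM in EK HP (SD, n = 3) of experiment 2. NDUFB4 had 11 counts over experiment 1 and averaged 107.1 ± 6.43 CPM in adapted pd1245 LP. COX5B (ENSDARG00000113254) averaged 6.22 ± 0.72 CPM in pd1116 LP (SD, n = 3) of experiment 1 and had 13 counts over experiment 2. MT-ND6, on the other strand, averaged 424 ± 11.7 CPM in pd1116 LP of experiment 1 and 8.85 ± 0.34 CPM in adapted pd1245 LP of experiment 2.

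In experiment 1, 3 libraries ranked at an end of their group for most members. Replicate 1 of EK LP was the lowest of its group for 98 of 117 members (83.8%, against 34.7% of all genes), including all 13 mitochondrial ones. Replicate 3 of pd1245 HP was the highest for 92 (78.6%, against 37%), and replicate 3 of pd1245 LP for 110 (94%, against 45%).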
